A study of Homo sapiens with 6 samples.

Results

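The 7 human microRNA names hsa-miR-1246, hsa-miR-1290, hsa-miR-4488, hsa-miR-4449, hsa-miR-4497, hsa-miR-3648 and hsa-miR-3687 (further on without the species prefix) are described here in K562 cells with and without RUNX1 over-expression. They were picked by name, as microRNA entries thought to fall and to resemble pieces of structured RNA, with the result of this same contrast known, so their changes are a description without a test. They are 7 of the 28846 small RNA entries in each file. Of the 7 names, 5 were lower in RUNX1 samples. The falling did not hold for miR-3687, which was higher in all 3 RUNX1 samples, or for miR-1290, which had 0 counts in all 6 libraries. Resemblance is a separate matter. It was compared with only some structured RNAs, and of the 5 lower entries only miR-1246 lay whole in one of these.

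K562 is an erythroleukemia cell line derived from chronic myeloid leukemia, and RUNX1 is a transcription factor of blood cell development. Control cells carried the empty lentiviral vector SIEW, which expresses GFP only, and RUNX1 cells carried SIEW with human RUNX1 and GFP, with 3 independent transductions of each. RNA was taken after 10 days in culture, and small RNA libraries were made from 1000 ng of total RNA. The erythroid microRNA miR-451a, used as a check of the cell type, was present in every library at 1312 to 3158 CPM.

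A microRNA is cut from a hairpin by Drosha and Dicer and directs Argonaute to target transcripts, mainly through its seed at the 5′ end. Some database entries carry a microRNA name although their sequence also lies in a ribosomal RNA or small nuclear RNA, and reads of such an entry can come from either source. The structured RNAs used for comparison were 5S rRNA, which RNA polymerase III makes for the large ribosomal subunit, and U1 and U2, the small nuclear RNAs that recognize the 5′ splice site and the branch point in the spliceosome.

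The mature sequences of 6 of the 7 names were found in RefSeq (GRCh38.p14) and are shown 5′ to 3′. Their composition is compared below with that of other microRNAs, and the letters of miR-1246 and miR-1290 with those of U2. Capitals mark the seed, bases 2 to 8.

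miR-1246: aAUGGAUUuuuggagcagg

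miR-1290: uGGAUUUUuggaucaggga

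miR-4488: aGGGGGCGggcuccggcg

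miR-4449: cGUCCCGGggcugcgcgaggca

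miR-4497: cUCCGGGAcggcugggc

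miR-3648: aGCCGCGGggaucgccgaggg

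No seed was shared among the 6. The sequences of miR-4488, miR-4449, miR-4497 and miR-3648 were 88.9%, 81.8%, 82.4% and 81.0% G or C, against a median of 50% over the 520 tested microRNAs with a sequence. By contrast, miR-1246 and miR-1290 had 42.1% each and shared the 12-base run uggauuuuugga.

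The entries also differed in where they lie (GRCh38). The mature miR-1246 lies at chr2:176601024-176601042 on the minus strand, and its hairpin overlaps no other gene in GENCODE 29. The mature miR-1290 lies at chr1:18897078-18897096 on the minus strand, in an intron of ALDH4A1, a mitochondrial enzyme of proline breakdown. Similarly, miR-4449 at chr4:52712720-52712741 on the plus strand lies in an intron of the long non-coding RNA DANCR. The mature miR-4488 lies at chr11:61508599-61508616 on the plus strand, with no overlapping gene, and miR-4497 at chr12:109833350-109833366 on the plus strand, opposite to an exon of the ion channel gene TRPV4.

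The remaining pair, miR-3648 and miR-3687, are neighbours. GENCODE 29 lists 2 copies of each hairpin on chromosome 21, MIR3648-1 at chr21:8208473-8208652 and MIR3687-1 at chr21:8208844-8208904, and MIR3648-2 at chr21:8986999-8987178 and MIR3687-2 at chr21:8987370-8987430. In both copies 191 bases separate the hairpins. In RefSeq (GRCh38.p14) the first copies lie within RNA45SN2, a precursor of ribosomal RNA, before its 18S part RNA18SN2. Both also lie in an intron of the long non-coding RNA FP671120.1 in GENCODE 29.

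Counts were scaled with edgeR's TMM method, and the unit of a level is CPM, counts relative to the scaled total of each library. A change is the log2 fold change of RUNX1 over control with its standard error (SE) from edgeR's fit over 947 entries that passed the filter on low counts. For a call as lower or higher, the p-value had to be under 0.05 and the log2 fold change 0.5 or more in either direction. Of the 7 names, 6 had counts and passed the filter, and of these 5 were lower and 1 was higher, beside 29.6% lower and 28% higher among all tested entries. In all 6 the RUNX1 samples did not overlap with the controls, as in 64.8% of the tested entries. The 5 lower entries passed the filter through the control samples only, and since the names were chosen on this contrast, nothing is read from these counts. Total counts ran from 1618248 to 15245007 per library, and 3 counts, the limit that a count of 0 allows, correspond to 0.26 to 1.43 CPM. For miR-1290 this limit is all that can be stated. Most tested entries (57.6%) were altered and the mean TMM factor was 1.28 for controls but 0.786 for RUNX1 libraries, so every level rests on the scaling. Of the altered entries, 51.4% were lower with TMM, 81.3% with library size only, 61.8% with TMM on microRNAs only and 47.7% with RLE factors. Library size only moved the median log2 fold change of all tested entries by -0.70.

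Among the lower entries, hsa-miR-4449 had the most counts. Its counts were 129, 505 and 412 in the control samples and 16, 13 and 23 in the RUNX1 samples, from deeper libraries. These gave 61.7, 62.7 and 54.3 CPM in the controls and 1.39, 2.08 and 3.36 CPM with RUNX1. All 3 RUNX1 samples lay far below all 3 controls. The mean fell from 59.5 ± 4.6 to 2.27 ± 0.999 CPM (SD, n = 3 each), or a log2 fold change of -4.76 (SE 0.27), the 5th lowest of the 947.

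For hsa-miR-1246, an entry widely measured in body fluids and extracellular vesicles, the counts were 24, 110 and 105 in the controls and 7, 1 and 10 with RUNX1. The levels were 11.5, 13.7 and 13.8 CPM in the controls and 0.607, 0.160 and 1.46 CPM with RUNX1. The groups did not overlap, while the RUNX1 samples spread widely around few counts. The mean went from 13.0 ± 1.31 to 0.742 ± 0.660 CPM (SD, n = 3 each), or a log2 fold change of -4.13 (SE 0.41).

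For hsa-miR-3648 the difference was smallest among the 5. Its counts were 18, 63 and 63 in the controls and 14, 5 and 11 with RUNX1, or 8.61, 7.82 and 8.30 CPM and 1.21, 0.800 and 1.61 CPM. Here both groups were tight, and no RUNX1 sample came near a control. The mean went from 8.24 ± 0.398 to 1.21 ± 0.403 CPM (SD, n = 3 each), with a log2 fold change of -2.73 (SE 0.27), the 50th lowest of the 947.

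The other two, hsa-miR-4488 and hsa-miR-4497, were at the edge of detection upon RUNX1 over-expression. The counts of miR-4488 were 9, 48 and 35 in the controls and 0, 1 and 1 with RUNX1, and its control levels were 4.30, 5.96 and 4.61 CPM. The counts of miR-4497 were 3, 26 and 14 in the controls and 1, 0 and 2 with RUNX1, and its control levels were 1.43, 3.23 and 1.84 CPM. Every RUNX1 library had at most 2 counts of either entry, so a fitted fold change depends on the prior count. Over the summed counts of each group, scaled for library size and TMM, the control level of miR-4488 was 63.9 times the RUNX1 level, with a 95% counting interval of 17.2 to 535. For miR-4497 this ratio was 19.9 (6.37 to 100.3). These exact intervals cover counting error only and not the spread between cultures. By the same measure the ratio was 27.9 (21.1 to 37.6) for miR-4449, 18.4 (11.4 to 31.6) for miR-1246 and 6.66 (4.47 to 10.2) for miR-3648. The intervals of miR-3648 and miR-4449 did not overlap, whereas that of miR-4488 overlapped with those of miR-4497, miR-1246 and miR-4449.

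**Figure D1:**
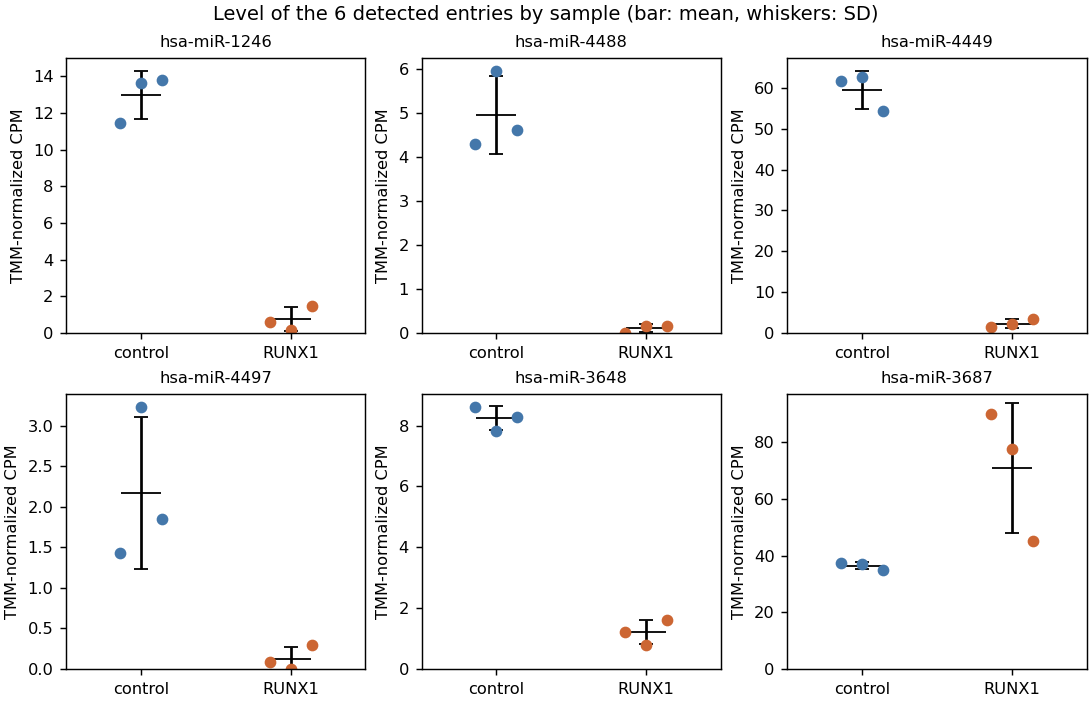
TMM-normalized CPM (y axes, linear, each with its own range) of the 6 detected entries in control and RUNX1 samples, 1 point per sample, with the mean as a bar and the SD as whiskers. In 5 panels the RUNX1 points lie near 0 and below all controls, and in the panel of miR-3687 they lie between 45.2 and 89.9 CPM, above the controls.

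hsa-miR-3687 went the other way. Its counts were 78, 297 and 266 in the controls and 1036, 485 and 310 with RUNX1, or 37.3, 36.9 and 35.0 CPM and 89.9, 77.6 and 45.2 CPM. The control samples were alike and the RUNX1 samples were spread over a broad range above them, with RUNX1 replicate 3 closest. The mean went from 36.4 ± 1.21 to 70.9 ± 23.1 CPM (SD, n = 3 each), or a log2 fold change of 0.97 (SE 0.24). With library size only, the groups overlapped, at 48.2, 48.3 and 42.9 CPM in the controls and 68.0, 57.0 and 39.1 CPM with RUNX1, and the log2 fold change was 0.24, under the size needed for a call. Under neither scaling was miR-3687 called lower.

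The make-up of the list was inverted between the conditions. In control samples miR-4449 held 46.0% to 49.4% of the counts of the 7 names and miR-3687 held 28.3% to 29.9%. In RUNX1 samples miR-4449 held 1.49% to 6.44% and miR-3687 held 86.8% to 96.5%. Shares within a library do not depend on the scaling between libraries. Of all counts, the list took only 0.0145% to 0.017% in the controls and 0.00451% to 0.00704% with RUNX1.

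The neighbours miR-3648 and miR-3687 separated from each other. The log2 ratio of miR-3687 to miR-3648 counts (0.5 counts added to each) was 2.09, 2.23 and 2.07 in the controls and 6.16, 6.46 and 4.75 with RUNX1. The controls were almost identical, and every RUNX1 sample was higher. The mean ratio went from 2.13 ± 0.0874 to 5.79 ± 0.912 (SD, n = 3 each), a difference of 3.67 that no scaling of the libraries can alter. Relative to 5.8S rRNA, which is cut from the same 45S precursor, miR-3648 differed by -2.05 and miR-3687 by 1.61 on the log2 scale.

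**Figure D2:**
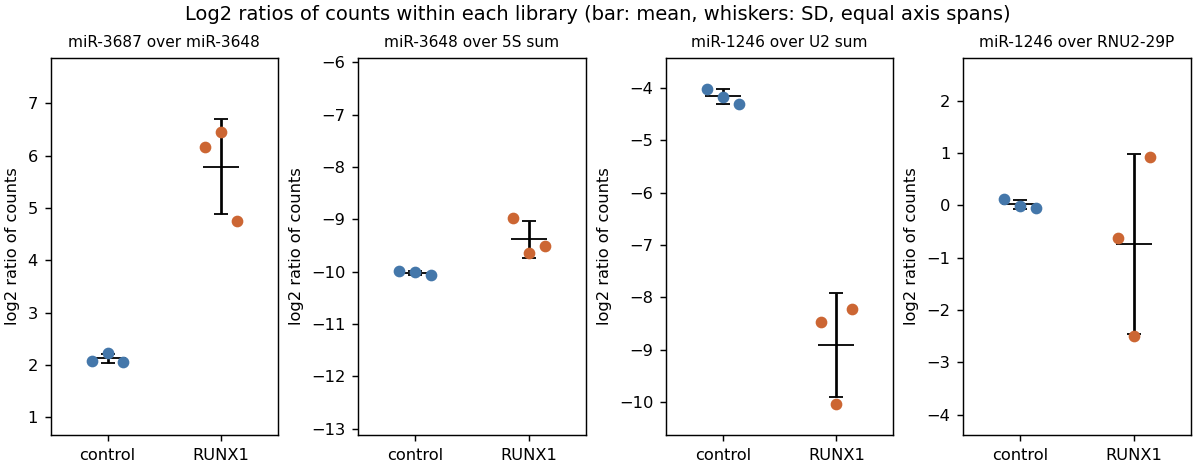
Log2 ratio of counts within each library (y axes, with different centres and equal spans), 1 point per sample, with the mean as a bar and the SD as whiskers. The ratio of miR-3687 to miR-3648 is higher in all 3 RUNX1 samples (4.75 to 6.46) than in the controls (2.07 to 2.23), and that of miR-1246 to RNU2-29P lies near 0 in the controls and is scattered with RUNX1.

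The structured RNAs were then set beside the list. They are spread over many near-identical entries, mostly named as pseudogenes, and how reads that match several entries were counted is not given in the sources used here. The count of any one entry is therefore uncertain, and the families were also summed. Of 43 tested 5S entries 34 were lower, 1 was higher and 8 were not called, with a median log2 fold change of -2.50. Of 12 tested U1 entries 9 were lower and none was higher, with a median of -2.05. Of 6 tested U2 entries 4 were lower and 1 was higher, with a median of -1.12. The median was -4.11 for the 6 tested names of the list, which were chosen on this contrast. For all 947 entries it was -0.06, and 29.6% of them were lower. Many of the 5S, U1 and U2 entries also passed the filter through the control samples only. Among the 17 5S entries that would have passed in either group alone, 11 were lower, as was the 1 such U1 entry and 1 of 3 such U2 entries.

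**Figure D3:**
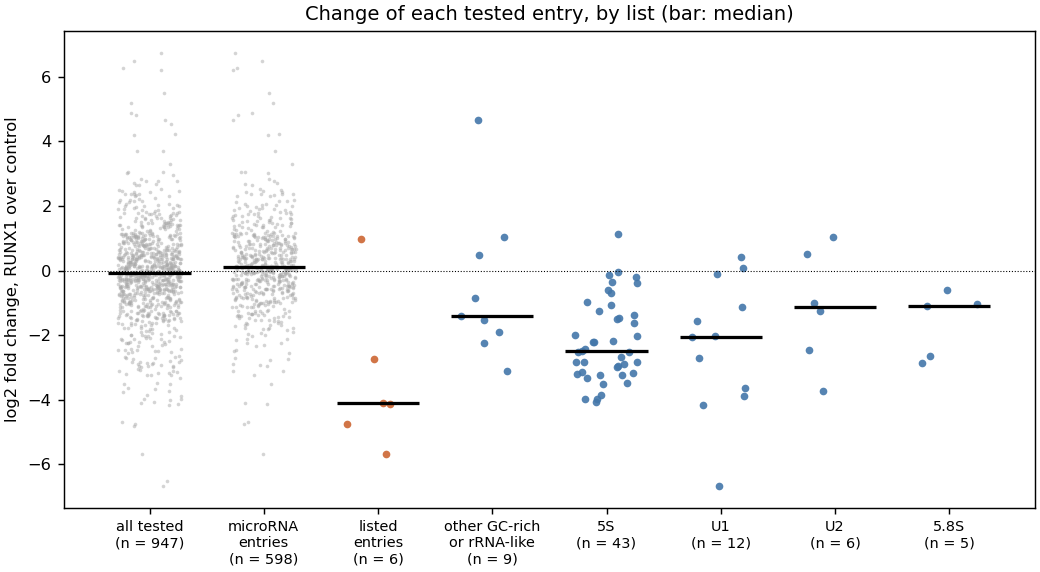
Log2 fold change of RUNX1 over control (y axis) of each tested entry, 1 point per entry, by list (x axis), with the median as a bar. Of the 6 listed entries, 5 lie between -5.68 and -2.73, below the medians of the 5S (-2.50), U1 (-2.05) and U2 (-1.12) entries, and miR-3687 lies at 0.97. The 5 were listed with this contrast known and passed the filter through the controls only, which in part set their place. The 5S sum, not drawn, was at -3.41, further down than miR-3648 at -2.73.

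The 5S sum was lower in every RUNX1 sample, with 18756, 65607 and 67891 counts in the controls and 7283, 4384 and 8396 with RUNX1. Its level fell from 8852 ± 468 to 835 ± 312 CPM (SD, n = 3 each), or a log2 fold change of -3.41 (SE 0.25, edgeR quasi-likelihood test with the families summed, adjusted p = 4.08e-06). With the families summed, 28.1% of the tested entries were lower. The entry RNA5SP74 alone held 74.1% to 77.4% of the 5S counts in control and fell by 3.96 (SE 0.20, edgeR adjusted p = 9.42e-07). The next 5S entries by level, RNA5SP132 and RNA5SP303, fell by 3.31 and 3.98 on the log2 scale (edgeR adjusted p = 0.000136 and 3.47e-06). The exception was RNA5SP289, named here after its values were seen, which rose by 1.13 (SE 0.20, edgeR adjusted p = 0.00113) but was not called with library size only, at 0.43.

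The log2 fold change of the 5S sum, -3.41, lay between those of miR-3648 and of the other 4 lower entries, but this order rested on RNA5SP74: without that entry the 5S sum was at -2.37, less far down than miR-3648. Within each library, the log2 ratio to the 5S sum changed by 0.65 for miR-3648, -0.99 for miR-1246 and -1.35 for miR-4449. For miR-4449 this ratio was -7.19 ± 0.172 in the controls and -8.54 ± 0.227 with RUNX1 (SD, n = 3 each). For miR-1246 it was -9.37 ± 0.187 and -10.36 ± 1.01, so its change did not exceed the SD of the RUNX1 samples.

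The U1 sum was also lower, from 89.1 ± 9.53 to 25.1 ± 9.86 CPM (SD, n = 3 each), or a log2 fold change of -1.84 (SE 0.25, edgeR adjusted p = 0.000201). The U1 entry RNU1-16P had 37, 142 and 149 counts in the controls and 1, 1 and 2 with RUNX1. RNU1-67P, the U1 entry with the highest level, fell by 2.07 (SE 0.49, edgeR adjusted p = 0.00546), and RNU1-59P by 1.12 (SE 0.28, edgeR adjusted p = 0.0074). RNU1-16P and RNU1-67P passed the filter through the control samples only, which in part set their being lower, while RNU1-59P passed in both groups. The ratio of miR-1246 to the U1 sum differed between the groups by -2.56 on the log2 scale.

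The U2 sum did not pass the threshold in either direction. It had 396, 2002 and 2077 counts in the controls and 2668, 1586 and 3144 with RUNX1, or 194, 254 and 277 CPM and 230, 247 and 447 CPM, and the groups overlapped. The log2 fold change was 0.35 (SE 0.25, edgeR adjusted p = 0.268). Without RUNX1 replicate 3 it was -0.03, and with library size only it was -0.26, neither of which passed the threshold. Thus the direction of the U2 sum was not determined. Ratios within a library separated the families whatever the scaling: the log2 ratio of the 5S sum to the U2 sum went from 5.21 ± 0.307 to 1.44 ± 0.0251 upon RUNX1 over-expression (SD, n = 3 each, two-sided exact permutation test, p = 0.1, the smallest possible with 3 samples against 3, and 0.1 after adjustment over 5 such ratios).

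miR-1246 is the entry for which the U2 comparison can be made base by base. All 19 bases of miR-1246 occur in the U2 gene RNU2-1, at positions 94 to 112 of its 191 bases in GENCODE 29, and this was the one tested microRNA of the 520 with a sequence (0.192%) that lay whole in a 5S, U1, U2 or 5.8S transcript. RNU2-1 itself is not among the entries of the files. For miR-1290 the same stretch of RNU2-1, at positions 96 to 114, differs in 1 base, U13G counted from the 5′ end of miR-1290. The longest run that miR-4488, miR-4449, miR-4497 or miR-3648 shared with these families was 9, 10, 8 and 8 bases. The run length reached by chance was not determined. Apart from 5S and 5.8S, no ribosomal RNA or precursor of it was compared. Whether miR-4488, miR-4449, miR-4497 or miR-3648 match other ribosomal RNA was therefore not tested. The best match in each of the 6 tested U2 entries is printed because these entries moved in different directions. Letters are written with U, and capitals mark bases that differ from miR-1246.

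RNU2-61P: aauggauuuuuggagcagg

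RNU2-29P: aGuggauuuuuggagcagg

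RNU2-59P: aauAgauuuuuggagcagg

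RNU2-68P: aaGggauuuuuggagcagg

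RNU2-70P: CauggauuuuuggagUagg

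RNU2-2P: aauggauuuuuggaAAUAg

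The U2 entries fell into those that were lower and those that were not. RNU2-29P, RNU2-70P and RNU2-61P passed the filter on low counts through the controls only, so that their being lower was in part set by their entry into the fit. RNU2-29P, with 1 difference (A2G, position counted from the 5′ end of miR-1246), had 22, 111 and 108 counts in the controls and 11, 8 and 5 with RUNX1. Its level fell from 12.8 ± 2.02 to 0.988 ± 0.277 CPM (SD, n = 3 each), or a log2 fold change of -3.72 (SE 0.27, edgeR adjusted p = 5.62e-06) beside -4.13 for miR-1246. RNU2-70P (A1C and C16U) fell by 2.47 (SE 0.37, edgeR adjusted p = 0.000411), and RNU2-68P (U3G) by 1.00 (SE 0.28, edgeR adjusted p = 0.0129). RNU2-61P, which holds the whole of miR-1246, fell by 1.24 (SE 0.35, edgeR adjusted p = 0.0138).

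In contrast, the abundant RNU2-2P, with 4 differences (G15A, C16A, A17U and G18A), had a log2 fold change of 0.51 (SE 0.24, edgeR adjusted p = 0.0878) and was not called. RNU2-59P, with 1 difference (G4A), had 104, 520 and 867 counts in the controls and 1129, 682 and 1844 with RUNX1, and the groups overlapped. It was called higher by the unadjusted p-value, its log2 fold change being 1.04 (SE 0.42), but its edgeR adjusted p was 0.0582. The calls of both entries rested on the scaling. With library size only RNU2-2P was at -0.16 and RNU2-59P at 0.40, neither called, while with RLE factors RNU2-2P was called higher, at 0.58, and with TMM on microRNAs RNU2-59P was at 0.86 and not called. Without RNU2-59P the log2 fold change of the U2 sum was -0.11. The number of differences from miR-1246 thus did not order these entries by their change. Counts are given per whole entry, of 179 to 191 bases, without read positions. The changes are therefore not those of the printed stretches. The 6 named U2 entries that hold the whole of miR-1246 had 10, 33 and 29 counts together in the controls and 12, 17 and 13 with RUNX1. These counts are not scaled, and the RUNX1 libraries were deeper. Of these entries only RNU2-61P was tested, with a log2 fold change of -1.24.

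The ratio of miR-1246 to the U2 sum went from -4.17 ± 0.142 to -8.92 ± 0.987 on the log2 scale (SD, n = 3 each), a difference of -4.75. Against RNU2-29P the ratio was 0.12, -0.01 and -0.04 in the controls and -0.62, -2.50 and 0.93 with RUNX1. The controls lay within a narrow range around 0, and the RUNX1 samples lay on both sides of them, at 1 to 11 counts of either entry. The mean difference was -0.75, less than the SD of 1.72 in RUNX1 samples.

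**Figure D4:**
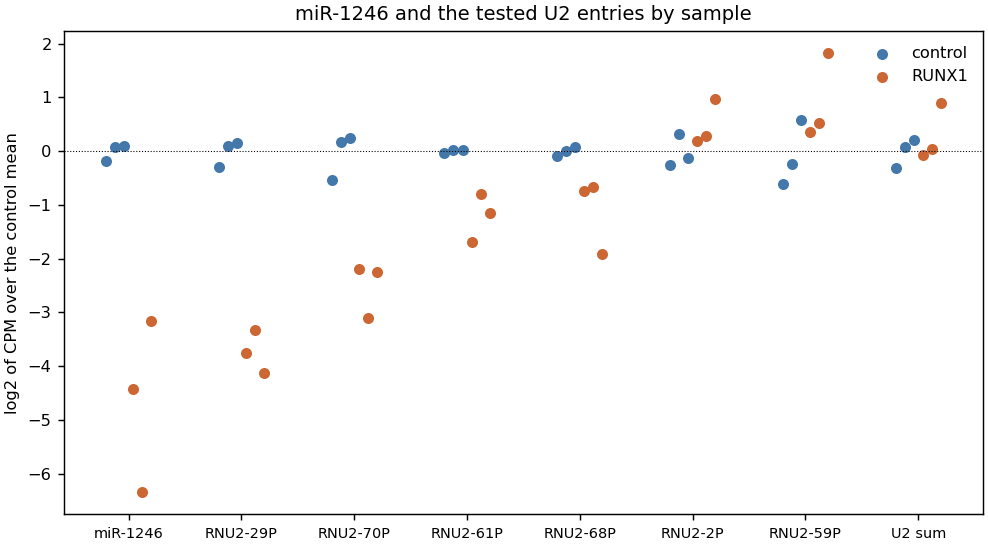
Log2 of the CPM of each sample over the control mean (y axis) for miR-1246, the 6 tested U2 entries and their family sum (x axis), 1 point per sample. The RUNX1 points of miR-1246 and RNU2-29P lie below -3, and those of RNU2-2P, RNU2-59P and the U2 sum lie around or above the controls.

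By G and C content, the share of tested microRNAs called lower was 18% of 100 with a content below 40%, and 20.1%, 23.0%, 24.3% and 30.8% in the bins from 40, 50, 60 and 70%, the last of which holds 4 of the listed entries. The number called higher was 40 of 100 in the first bin. The median log2 fold change of the 5 bins was 0.27, 0.12, 0.06, -0.03 and 0.00. Of the 39 tested microRNAs with a sequence of at least 70% G or C, 12 were lower and 8 were higher. Without the listed miR-4488, miR-4449, miR-4497 and miR-3648, 8 of 35 were lower (22.9%) and 8 were higher, beside 135 lower (22.6%) and 200 higher among all 598 tested microRNA entries. Unlike the 35, the 598 include entries without a matched sequence. Among these are predicted microRNAs, some with the same counts as a named one. Across the 520 microRNAs with a sequence, which share the same 6 libraries, Pearson's r between this content and the log2 fold change was -0.19, and -0.14 without the listed entries. The GC-rich entries miR-4488, miR-4449, miR-4497 and miR-3648 exceeded 97.9% to 98.8% of these microRNAs in G and C content, and miR-1246 exceeded 29%.

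**Figure D5:**
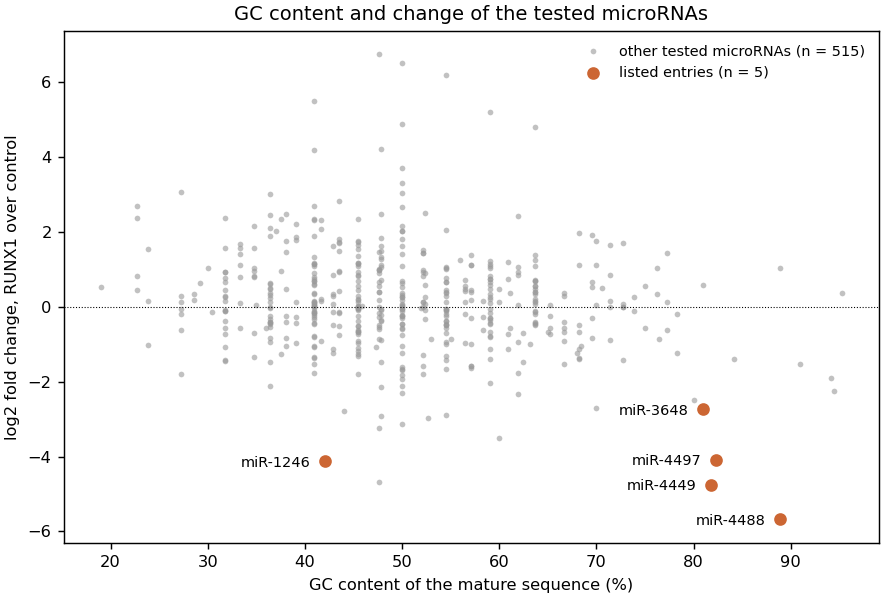
Log2 fold change of RUNX1 over control (y axis) against the G and C content of the mature sequence in percent (x axis) for the 520 tested microRNAs with a sequence. The 4 GC-rich listed entries lie at the lower right (81.0% to 88.9%, log2 fold change -5.68 to -2.73) and miR-1246 at 42.1%, while other GC-rich microRNAs lie on both sides of 0.

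A list of 27 other microRNA names that are rich in G and C or resemble ribosomal or small nuclear RNA was used as a further comparison. The files held 25 of them, 13 had counts and 9 were tested, of which 5 were lower and 1 was higher (29.6% and 28% of all tested entries), with a median log2 fold change of -1.40. The lower entries were miR-6087, miR-4466, miR-4492, miR-663a and miR-7704, which fell by 3.11, 2.25, 1.91, 1.54 and 1.40 on the log2 scale (edgeR adjusted p from 2.83e-05 to 0.00607). Of these, miR-4466, miR-4492 and miR-663a passed the filter through the control samples only. Their being lower was in part set by their entry into the fit. miR-4532 rose, from 551, 2423 and 2643 counts in the controls to 76586, 61428 and 44872 with RUNX1, a log2 fold change of 4.66 (SE 0.21, edgeR adjusted p = 8.07e-07). miR-4516, miR-3196 and miR-1275 were not called, with log2 fold changes of -0.86, 1.04 and 0.49. With library size only, miR-4516 was called lower, at -1.54, and miR-1275 was at -0.18, and with RLE factors miR-3196 was called higher, at 1.10. Thus, as in the listed entries, not all names of this kind moved in the same direction.

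Of other structured RNAs, all 5 tested 5.8S entries and all 3 tested U6 entries were lower, with median log2 fold changes of -1.08 and -4.00. The 3 U6 entries passed the filter through the controls only, and the 5.8S entries passed in both groups. The 5.8S sum fell from 30165 ± 1897 to 18002 ± 4161 CPM (SD, n = 3 each), or a log2 fold change of -0.74 (SE 0.17, edgeR adjusted p = 0.00391). The sum of U6, the catalytic small nuclear RNA of the spliceosome, fell by 1.55 (SE 0.22, edgeR adjusted p = 0.000269).

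The entries with the profile most like the mean of the 6 tested names, by Pearson's r of log2 CPM over the 6 samples, were SNORD20, SNORD14A, SCARNA8, SNORA23 and SNORD83B, with r from 0.998 to 0.999. All 5 are small nucleolar or Cajal body RNAs, classes that guide the modification of ribosomal and spliceosomal RNA. The share of these classes among all tested entries was not determined, so no link with the listed names is read from this. The log2 fold changes of the 5 entries were -1.39, -2.09, -4.80, -3.66 and -2.85. Such values of r are common when the 6 samples form 2 groups, and 139 of the 941 other tested entries exceeded 0.95. Among the names themselves r was 0.981 to 0.994 for the 5 lower entries and -0.90 for miR-3687. These values were largely set in advance, since the names make up the mean profile and were chosen on this contrast.

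Depth moved with the condition, with totals of 1618248 to 6193319 counts in the control libraries and 7918551 to 15245007 in the RUNX1 libraries, and its part in these results was not tested. Control and RUNX1 library names also differ in a letter. Should this letter mark the preparation, its effect and that of the condition cannot be told apart.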

How the data were processed

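Libraries were built with Illumina's TruSeq kit for small RNA. The authors counted reads per annotated entry and deposited raw counts, without normalization. The submitters' processing notes name CASAVA 1.8.2 and genome build hg19. The handling of reads that match several entries is not given in the sources used here. Groups and replicates follow the sample titles. In the library names, RUNX1 replicates 1 and 2 have the same number.

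The counts were analysed in R 4.3.3 with edgeR 4.0.16 (filterByExpr with a minimum count of 10 and total of 15, TMM, glmQLFit and glmQLFTest with condition as the only term), with p-values adjusted by Benjamini-Hochberg over all tested entries. The SE was taken as the size of the log2 fold change over the square root of F. The families 5S, U1, U2, 5.8S and U6 were summed by name and the fit repeated. P-values measure the spread between 3 transductions of 1 cell line. The biological coefficient of variation was 0.181, and replicates differed by more than sampling noise. Sequences came from RefSeq (GRCh38.p14) and GENCODE 29, and 520 of 598 tested microRNA entries, predicted ones included, matched a sequence. The fits were tested on simulated data.

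The listed names, comparison lists and tests were chosen with earlier results of these data known. Named entries were the 7 names, the family sums, the 3 tested entries with the highest mean CPM in 5S, U1 and U2, the tested entries of the comparison list and the 5 most similar profiles. The other tested U2 entries and RNA5SP289 were named in addition, after their values were seen. Alternatives were DESeq2 1.42.0, RLE factors, library size only, TMM on microRNAs only, at least 10 counts in every sample, no count filter, adjusted p-values, the replicate number as a block, leaving out each replicate and, chosen after the data were seen, each family sum without its most counted entry.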

Additional observations from a re-analysis of the deposited data

How the results depend on the processing

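The log2 fold changes of the 6 tested names kept their sign in all 74 recomputed values, of which 6 moved by more than 1 SD. With library size only, miR-4488, miR-4449, miR-3648 and miR-3687 were at -6.34, -5.46, -3.43 and 0.24, against a median of all entries 0.70 lower, and leaving out 1 RUNX1 replicate moved miR-4488 to -4.87 and miR-4497 to -4.95. With at least 10 counts in every sample, 1 of the names was called lower in place of 5, since fewer were tested. The lower 5S entries numbered 58 without a count filter and 13 with at least 10 counts in every sample (34 as reported), the U1 entries 14 and 2 (9), and the U2 entries 1 with 10 counts in every sample (4). The U2 sum, at 0.35, was -0.26 with library size only and -0.11 without RNU2-59P, the latter chosen after seeing the data, and ran from -0.0329 (without RUNX1 replicate 3) to 0.52 with each replicate left out, never past the threshold. The cause was not tested. Without RNA5SP74, likewise chosen after seeing the data, the 5S sum was -2.37. Over the same omissions of replicates the 5S sum ran from -3.75 to -3.23 and the U1 sum from -2.17 to -1.61. Samples with the same replicate number had correlations of -0.04, -0.10 and 0.01 between their deviations. No pairing by number was seen, though so few samples cannot exclude one. With the replicate number as a block 546 entries were altered (545 without), with 5S, U1 and U2 sums at -3.47, -1.88 and 0.30. At 0 to 2 counts per RUNX1 library, depth limits miR-4488 and miR-4497 to the intervals given.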
